A study of Homo sapiens with 4 samples.

Results

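The radioresistant colorectal cancer cell line RKO-R was compared with its parental line RKO by small RNA sequencing, with 1 library per line. A miRNA entered the comparison if it had at least 50 counts in at least 1 of both libraries, and 328 miRNAs did, of 1474 listed in any library of the series. Of these, 282 reached 50 counts in both libraries, 36 in RKO alone and 10 in RKO-R alone. RKO is a human colon carcinoma line. Per the study's methods, RKO-R was made from it by repeated irradiation with 4 Gy, to 40 Gy in all, and was then grown for at least 3 weeks without irradiation before RNA was taken, while RKO received 0 Gy. The same was done with HCT116, another colon carcinoma line, to give HCT116-R, whose pair shares no library with the RKO pair. No source used here says whether RKO-R was grown from 1 clone or from a mixed population.

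A miRNA is cut from a hairpin RNA and loaded into an Argonaute protein, where bases 2 to 8, the seed, pair with messenger RNAs and lower their translation or stability. Both arms of the hairpin, 5p and 3p, can give a mature miRNA, and the arm that is retained less is often called the passenger strand. miRNAs with the same seed form a family, and hairpins that lie close together on a strand are often cut from the same primary transcript. In colorectal cancer cells, miRNAs act on the genes of the cell cycle, apoptosis and DNA repair that also set the response to radiation.

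The sequences below are the ones that the largest differences turned on, from RefSeq (GRCh38.p14), written 5′ to 3′ with the seed in capitals. Of the 328 miRNAs, 291 had a sequence there. The first 3 pairs are shown because each holds a miRNA that was much lower in RKO-R and a fully complementary miRNA that was much higher.
miR-7-5p: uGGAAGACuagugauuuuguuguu
miR-3529-3p: aACAACAAaaucacuagucuucca
miR-423-5p: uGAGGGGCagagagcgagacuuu
miR-3184-3p: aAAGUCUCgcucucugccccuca
miR-103b: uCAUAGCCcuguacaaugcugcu
miR-103a-3p: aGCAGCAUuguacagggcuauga
The next 2 pairs are the arms of hairpins whose arm use differed between RKO and RKO-R without a complementary partner.
miR-1307-5p: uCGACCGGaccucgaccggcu
miR-1307-3p: aCUCGGCGuggcgucggucgug
miR-339-5p: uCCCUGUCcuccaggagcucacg
miR-339-3p: uGAGCGCCucgacgacagagccg
Among families with at least 3 members, those with the lowest median ratio share the seed GUAAACA or the seed AAAGCUG. The first is seen in miR-30c-5p and miR-30e-5p, and the second in miR-320b, miR-320c and miR-320d. The last 3 of these are 22, 20 and 19 bases long.
miR-30c-5p: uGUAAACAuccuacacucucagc
miR-30e-5p: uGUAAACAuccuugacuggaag
miR-320b: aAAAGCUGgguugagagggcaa
miR-320c: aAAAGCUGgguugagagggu
miR-320d: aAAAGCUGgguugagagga
miR-183-5p and let-7c-5p are shown beside a close relative that did not move with them.
miR-183-5p: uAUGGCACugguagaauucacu
miR-96-5p: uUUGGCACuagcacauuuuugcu
miR-182-5p: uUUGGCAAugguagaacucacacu
let-7c-5p: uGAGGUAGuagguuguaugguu
let-7a-5p: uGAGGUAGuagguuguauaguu

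The deposited values were raw counts of reads per mature miRNA, 7140460 in RKO and 6913146 in RKO-R, and 6823240 in HCT116 and 6818497 in HCT116-R. Each count was expressed as CPM, the number of counts per 1000000 of the library total, and a miRNA that a table did not list was taken as 0. The 328 miRNAs held 99.9% of the counts of each RKO library. Of the lists of cell type markers, the miRNAs of colon and gut epithelium had 78735 counts in RKO against 87117 in RKO-R, with every listed miRNA detected. Those of striated muscle had 6 counts in each RKO library, the neuronal miR-124 had 0 in RKO and 1 in RKO-R, and 6 miRNAs of blood cells had 117 and 90. No line had a replicate, so no test was possible. The 95% intervals given with log2 ratios cover counting error only, and the spread between cultures is unknown.

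Most miRNAs had a similar level in both lines. The ratio of RKO-R to RKO stayed within 2-fold for 252 of 328 miRNAs, while 21 were at least 2-fold higher in RKO-R (6.4%) and 55 at least 2-fold lower (16.8%). At 4-fold, the numbers were 9 and 18. The 10 most abundant miRNAs of each library took 63.1% of counts in RKO and 63.7% in RKO-R. The most abundant was let-7i-5p, a member of the let-7 family of differentiation-linked miRNAs, at 15.7% of counts in RKO (95% Wilson interval 15.7 to 15.8%) and 17.5% in RKO-R (17.5 to 17.6%). miR-222-3p, which targets the cell cycle inhibitor p27, was the second in RKO and the third in RKO-R, with 936559 counts in RKO against 587757 in RKO-R, a log2 ratio of -0.63 (95% counting interval -0.63 to -0.62). miR-21-5p, an oncogenic miRNA that targets PDCD4, had 658050 counts in RKO against 870800 in RKO-R, a log2 ratio of 0.45 (0.45 to 0.46). Among the other abundant miRNAs, miR-92a-3p, miR-191-5p and miR-16-5p had lower levels in RKO-R (log2 ratios -0.54, -0.32 and -0.39), and let-7a-5p, let-7f-5p, miR-26a-5p and miR-100-5p higher levels (0.45, 0.45, 0.44 and 0.30). Of all these abundant miRNAs, only miR-7-5p and miR-3529-3p differed by more than 2-fold.

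**Figure D1:**
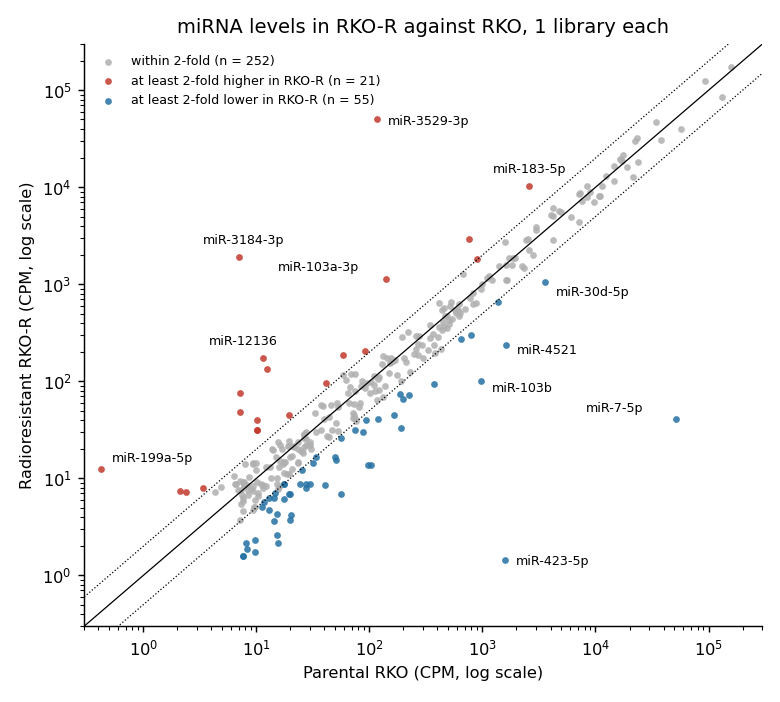
Level of each of the 328 miRNAs in parental RKO (x axis) and radioresistant RKO-R (y axis), in CPM on log scales, 1 library each. The solid line marks equal levels and the dotted lines a 2-fold difference, a miRNA at 0 counts is drawn at 3 counts, and the 21 higher and 55 lower miRNAs are coloured.

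The median log2 ratio of the 328 miRNAs was -0.22, with quartiles of -0.68 and 0.20. The size factors of edgeR's TMM method, which centre the bulk of miRNAs, add 0.24 to every log2 ratio, and 26 miRNAs were then at least 2-fold higher and 42 at least 2-fold lower. The share of higher miRNAs among those beyond 2-fold was 27.6% with library totals and 38.2% with TMM. Lower miRNAs were found mainly among the sparse ones. Of the 164 miRNAs with a mean under 500 counts, 11 were higher and 40 lower, while of the 73 with a mean of at least 5000 counts, 5 were higher and 5 lower. These numbers include 36 miRNAs that reached the minimum count in RKO alone and 10 in RKO-R alone. Of the 282 that reached it in both libraries, 17 were at least 2-fold higher and 32 lower. Whether the excess among sparse miRNAs holds for these 282 was not tested. Just beyond 2-fold, and so called lower, were miR-30e-5p, miR-26a-1-3p and miR-550a-5p, each with a log2 ratio of -1.01. Just within 2-fold, and so not called, were miR-328-3p at 1.00 with 417 counts in RKO against 806 in RKO-R, miR-219b-5p at -0.98 and miR-1306-5p at -0.98. In the HCT116 pair, 26 of the same miRNAs were at least 2-fold higher (8.0%) and 20 at least 2-fold lower (6.15%) of 325 listed there, with a median of -0.11.

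The 4 largest differences lay in complementary pairs, in which the mature sequences of both miRNAs are reverse complements of each other. miR-7-5p, a miRNA that targets the EGFR messenger RNA, had 367030 counts in RKO against 284 in RKO-R. Its complement miR-3529-3p had 827 counts in RKO against 346251 in RKO-R. The miR-7-5p level was 1251-fold lower in RKO-R (log2 ratio -10.29, -10.46 to -10.12) and the miR-3529-3p level 432-fold higher (8.76, 8.66 to 8.86). The sum of both was nearly the same in each library, at 367857 and 346535 counts (log2 ratio -0.04, -0.05 to -0.03). All 24 bases of these sequences are complementary, and their seeds, GGAAGAC and ACAACAA, are different. MIR3529 lies opposite the MIR7-2 hairpin, with miR-3529-3p at chr15:88611856-88611879 on the minus strand. miR-7-5p also lies at chr9:83969811-83969834 in MIR7-1, exonic in at least 1 transcript of HNRNPK, and at chr19:4770700-4770723 in MIR7-3, in an intron of MIR7-3HG. The opposite arm of MIR7-1, miR-7-1-3p, which has no such complement, had 3433 counts in RKO against 3234 in RKO-R (log2 ratio -0.04, -0.11 to 0.03).

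The next pair, miR-423-5p with miR-3184-3p, is annotated at the same 23 bases, chr17:30117095-30117117, on the plus and the minus strand, in a region that is an untranslated exon of NSRP1 in at least 1 annotated transcript. miR-423-5p had 11237 counts in RKO against 10 in RKO-R, and miR-3184-3p 50 and 13335. The miR-423-5p level was 1088-fold lower in RKO-R (log2 ratio -10.09, -11.15 to -9.21) and the miR-3184-3p level 275-fold higher (8.11, 7.71 to 8.54). Their sum, at 11287 and 13345 counts, had a log2 ratio of 0.29 (0.25 to 0.32). The opposite arm of the same hairpin, miR-423-3p, had 103367 counts in RKO against 80389 in RKO-R (log2 ratio -0.32, -0.33 to -0.30), and its own complement, miR-3184-5p, had 1 count and 0 counts.

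miR-103a-3p and miR-103b are fully complementary over 23 bases and come from both strands of introns of PANK3, at chr5:168560904-168560926, and PANK2, at chr20:3917541-3917563. PANK genes encode pantothenate kinases, and miR-103a-3p acts on insulin signalling and on DICER. miR-103b had 6939 counts in RKO against 695 in RKO-R (log2 ratio -3.27, -3.39 to -3.16), and miR-103a-3p 1001 and 7928 (3.03, 2.94 to 3.13). Their sum was 7940 and 8623 counts (0.17, 0.12 to 0.21). miR-107, from PANK1, which is complementary to miR-103b over 21 bases, had only 27 and 3 counts.

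Among the other complementary pairs, miR-3074-5p took 25.2% of the counts of the miR-24-3p pair in RKO and 25.5% in RKO-R (95% Wilson intervals 24.98 to 25.4% and 25.2 to 25.7%), and miR-374c-3p 37.4% and 38.0% of its pair with miR-374b-5p (35.4 to 39.4% and 35.8 to 40.2%). miR-203b-5p took 0.972% and 1.32% of its pair with miR-203a-3p (0.686 to 1.38% and 1.005 to 1.74%). Among the sparse pairs, miR-550b-3p took 2.34% and 21.1% of its pair with miR-550a-5p (0.800 to 6.66% and 13.4 to 31.5%), on 128 and 76 counts together. miR-219a-2-3p took 0.901% and 12.9% of its pair with miR-219b-5p (0.159 to 4.93% and 6.69 to 23.4%), on 111 and 62 counts. Of 12 complementary pairs with different names and at least 50 counts together in each RKO library, 3 moved from one name to the other by at least 50 percentage points. In the HCT116 pair, the shares of miR-3529-3p and miR-3184-3p went from 0.628% to 99.5% and from 0.183% to 99.3%, while that of miR-103a-3p went from 5.53% to 2.47% and that of miR-374c-3p from 37.2% to 98.7%. The sources used here do not state whether the counting used the strand of the read, so the members of such a pair cannot be told apart from these tables. With each pair summed, 18 miRNAs were at least 2-fold higher and 51 lower.

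**Figure D2:**
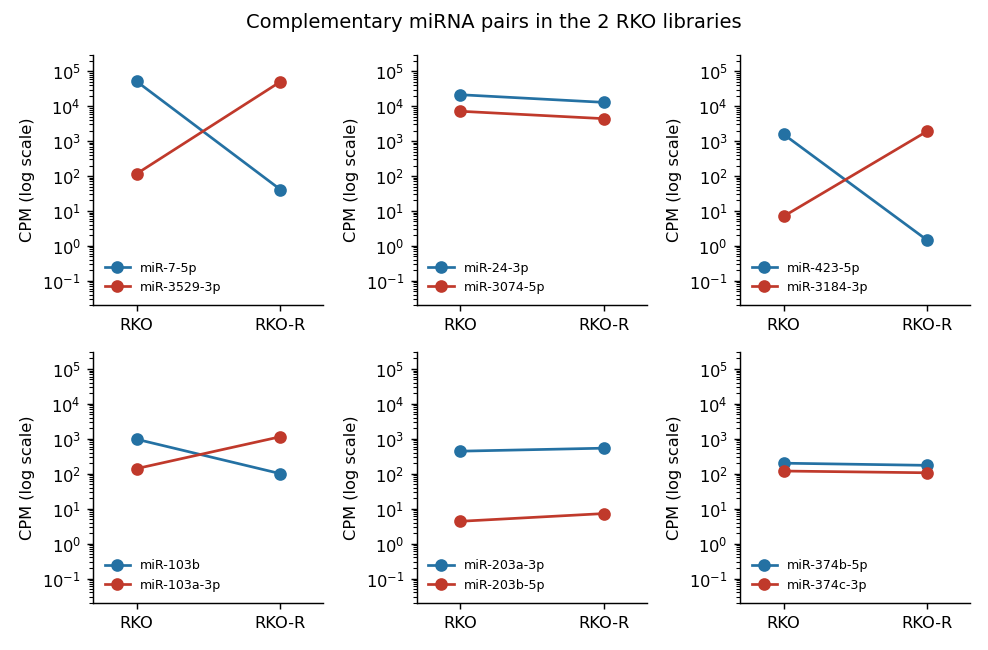
Levels of both miRNAs of 6 complementary pairs in RKO and RKO-R, in CPM on a log scale, 1 library each. The lines cross in the pairs that hold miR-103b, miR-423-5p or miR-7-5p, and those of the other 3 pairs run alongside each other.

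Apart from these pairs, the largest rise by CPM ratio among miRNAs with at least 200 counts was that of miR-12136. It is an 18-base miRNA annotated at chr1:632668-632685, in an intron of AL669831.3, a transcribed processed pseudogene on the same strand. miR-12136 had 81 counts in RKO against 1200 in RKO-R, a 15.3-fold difference (log2 ratio 3.94, 3.61 to 4.28). miR-143-3p, known from smooth muscle and fibroblasts, had 51 and 522 counts (3.40, 2.99 to 3.85). The mature miR-143-3p lies at chr5:149428978-149428998 in an exon of the long noncoding RNA gene CARMN. miR-210-3p, the miRNA most strongly induced by hypoxia through HIF1A, had 51 and 336 counts (2.77, 2.34 to 3.22), and its opposite arm miR-210-5p had 10 and 44. All 3 were thus among the sparse miRNAs of RKO.

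At higher levels, miR-183-5p had 18332 counts in RKO against 72117 in RKO-R (log2 ratio 2.02, 1.999 to 2.05) and miR-652-3p, from an intron of TMEM164 on chromosome X, had 5423 and 20111 (1.94, 1.89 to 1.98). miR-139-5p, which acts as a tumour suppressor in colorectal cancer, had 72 and 278 counts, a 3.99-fold difference (log2 interval 1.62 to 2.39), and the sparse other arm, miR-139-3p, had 17 and 50 (1.60, 0.78 to 2.49). miR-548ad-5p, with counts identical to those of miR-548ae-5p in every library, had 73 and 216 (1.61, 1.22 to 2.01). miR-33a-5p, from an intron of SREBF2, a regulator of cholesterol synthesis, had 6352 and 12508 (log2 ratio 1.02). Of the 21 higher miRNAs, 3 were members of a complementary pair.

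Some of the higher miRNAs, picked as examples, had more counts in both HCT116 lines than in RKO-R. In HCT116 and HCT116-R, miR-143-3p had 1733 and 829 counts, miR-139-5p 1307 and 1963, miR-584-5p 7567 and 9339, and miR-200c-3p 291469 and 286432. Other higher miRNAs had fewer there than in RKO-R, such as miR-103a-3p with 275 and 90 against 7928, and miR-1307-5p with 414 and 16 against 932. miR-200c-3p, an epithelial miRNA that targets ZEB1, had 649 counts in RKO against 1426 in RKO-R (1.18, 1.05 to 1.32), and miR-584-5p had 292 and 660 (1.22, 1.02 to 1.43). miR-199a-5p, a mesenchymal miRNA, had 0 counts in RKO, which allows up to 0.420 CPM, and 86 in RKO-R, at least 29.6-fold higher against a floor of 3 counts in that library. In HCT116 its count was 256, against 19 in HCT116-R. The CPM of miR-143-3p in RKO-R was 75.5, against 254 in HCT116, and that of miR-200c-3p 206, against 42717.

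The miRNAs that were lower in RKO-R included many GC-rich and sparse species. miR-4521, at chr17:8186948-8186969 outside other annotated genes, was the most abundant of those lacking a complementary pair or a family, with 11563 counts in RKO against 1623 in RKO-R (log2 ratio -2.79, -2.86 to -2.71). miR-940 had 402 and 48 counts (-3.02, -3.48 to -2.59), miR-1268a 287 and 59 (-2.24, -2.67 to -1.83), and miR-671-5p, from a coding exon of CHPF2, 2670 and 655 (-1.98, -2.11 to -1.86). miR-671-5p was accompanied by its opposite arm, miR-671-3p, with 108 and 30 counts (-1.80). miR-615-3p, which lies in the HOXC cluster, had 1184 and 313 counts (-1.87, -2.06 to -1.69), and its opposite arm miR-615-5p 102 and 43 (-1.20). miR-122-5p, a liver miRNA, was sparse, with 109 and 18 counts (-2.55, -3.36 to -1.82), and had 560 and 62 in the HCT116 pair. miR-522-3p, which the study also named, had 17 counts in RKO against 47 in RKO-R and so stayed below the minimum of 50.

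**Figure D3:**
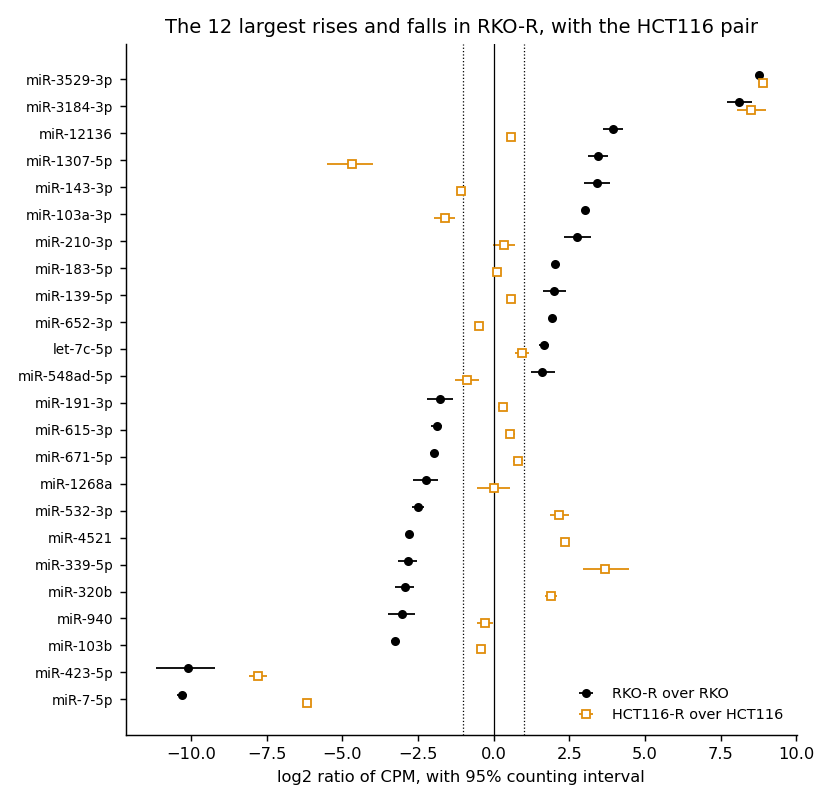
log2 ratio of CPM for the 12 largest rises and the 12 largest falls in RKO-R among miRNAs with at least 200 counts in a library, with 95% counting intervals (filled circles), and the same ratio in the HCT116 pair (open squares). Dotted lines mark 2-fold, and of these 24 miRNAs only miR-3529-3p, miR-3184-3p, miR-7-5p and miR-423-5p lay beyond 2-fold in the same direction in both pairs.

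Of the 21 miRNAs higher in RKO-R, miR-3529-3p and miR-3184-3p had a level at least 2-fold higher in HCT116-R too, and of the 55 lower ones miR-423-5p, miR-122-5p and miR-7-5p had one at least 2-fold lower. Over all the miRNAs compared, 8.0% were higher and 6.15% lower in HCT116-R, so neither share stood far from the background. By contrast, 6 of the 21 were at least 2-fold lower in HCT116-R, and 11 of the 55 at least 2-fold higher. Across 325 miRNAs listed in both pairs, Spearman's rho of the log2 ratios was -0.17, a description over miRNAs that share libraries. The difference between both lines was not tested.

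Families with a common seed mostly kept their summed level within 2-fold. All 14 families with at least 3 members did so, with log2 ratios of their summed counts from -0.92 to 0.28. Of the families with 2 members, those led by miR-501-3p and miR-23a-5p had sums beyond 2-fold (-1.01 and -1.19). With TMM scaling these were -0.77 and -0.95. Of the 14 larger families, the miR-30 family, which acts on the autophagy gene BECN1, had the lowest sum and the lowest median, at -1.36. Its sum was 39978 counts in RKO against 20430 in RKO-R (log2 ratio -0.92, -0.95 to -0.90). Its members did not move alike. miR-30d-5p had 25652 and 7385 counts (-1.75, -1.79 to -1.71), miR-30c-5p 364 and 108 (-1.71, -2.03 to -1.39) and miR-30e-5p 242 and 116 (-1.01, -1.35 to -0.69), whereas miR-30b-5p had 13720 and 12821 (-0.05, -0.09 to -0.02). Without miR-30d-5p, the family's summed log2 ratio was -0.09. miR-30e-5p and the MIR30C1 hairpin of miR-30c-5p share an intron of NFYC on chromosome 1. miR-30c-5p also comes from MIR30C2 on chromosome 6, in an intron of LINC00472. At NFYC, the opposite arms had log2 ratios of -1.49 for miR-30c-1-3p and 0.14 for miR-30e-3p.

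The miR-320 family is known for a hairpin that is made without DROSHA. Among families with at least 3 members, it was the other with a median beyond 2-fold, at -1.18, which was -0.95 with TMM scaling. miR-320b had 741 counts in RKO against 94 in RKO-R (log2 ratio -2.93, -3.26 to -2.62), miR-320d 175 and 60 (-1.50, -1.95 to -1.07), miR-320c 833 and 442 (-0.87, -1.04 to -0.70), and the abundant miR-320a-3p 11434 and 7581 (-0.55, -0.59 to -0.50). Their sequences are nearly identical, so the counting could divide reads among them. The sum of all 4 had a log2 ratio of -0.64 (-0.68 to -0.60), and of the 3 less abundant ones -1.51.

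The let-7 family, which represses RAS and MYC, held 306809 CPM in RKO-R, and its sum had a log2 ratio of 0.22 (0.21 to 0.22). Of its 9 members with the seed GAGGUAG, let-7c-5p alone was beyond 2-fold, with 414 counts in RKO against 1282 in RKO-R (1.68, 1.52 to 1.84). The closely similar let-7a-5p had 246005 and 324916 counts. The neighbour of let-7c-5p on chromosome 21, miR-99a-5p, had 1381 and 1996 counts (0.58, 0.48 to 0.68). The families of miR-93-5p, miR-16-5p, miR-34a-5p and miR-92a-3p, which include cell cycle regulators, had sums below RKO (-0.41, -0.33, -0.43 and -0.54), and those of miR-100-5p, miR-454-3p and miR-429 above it (0.22, 0.20 and 0.28). TMM scaling left these directions as they were and turned that of miR-181a-5p from -0.01 to 0.23.

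Clusters were drawn only from the 291 of 328 miRNAs with a RefSeq sequence, which leaves out miR-30b-5p and miR-30d-5p, among others. Hairpins on a strand within 10 kb of each other formed 30 clusters with at least 2 of the hairpins among these miRNAs. Of these clusters, 19 held no miRNA beyond 2-fold. A single miRNA or several were at least 2-fold lower in 9 clusters, a single miRNA at least 2-fold higher in 2, and 0 clusters held both. In the miR-183, miR-96 and miR-182 cluster at chr7:129770383-129774988, known from sensory organs and from colorectal tumours, only miR-183-5p was higher in RKO-R. miR-182-5p had 64374 and 62165 counts (log2 ratio 0.00, -0.02 to 0.01), miR-96-5p 19833 and 13947 (-0.46, -0.49 to -0.43), and the passenger miR-183-3p 82 and 59 (-0.43, -0.94 to 0.07). In the HCT116 pair, miR-183-5p had 70240 and 75039 counts.

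In the CLCN5 cluster at chrX:50003148-50014683, the median of 8 mature miRNAs was -1.15, and -0.91 with TMM scaling. miR-532-3p had 1348 counts in RKO against 231 in RKO-R (-2.50, -2.71 to -2.30), miR-500a-3p 102 and 25 (-1.98, -2.68 to -1.34), miR-502-3p 196 and 61 (-1.64, -2.08 to -1.22) and miR-500a-5p 125 and 42 (-1.53, -2.07 to -1.01). miR-501-3p and miR-188-5p had log2 ratios of -0.77 and -0.56. The most abundant products of the cluster were close to equal: miR-532-5p had 18408 and 15522 counts (-0.20, -0.23 to -0.17) and miR-362-5p 1964 and 2020 (0.09). Thus the opposite arms of the same miR-532 hairpin differed by more than 4-fold in their ratio. In the miR-17-92 cluster on chromosome 13, the 3 miRNAs at least 2-fold lower were miR-18a-3p (858 and 283 counts), miR-92a-1-5p (1342 and 507) and miR-19b-1-5p (93 and 43), each the less abundant arm of its hairpin, while miR-17-5p (-0.52), miR-18a-5p (0.20) and miR-92a-3p (-0.54) stayed within 2-fold.

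The division between the arms of a hairpin was compared for 156 pairings of a 5p and a 3p miRNA with at least 100 counts together in each library. The 5p share moved by less than 1 percentage point in the median pairing (0.429) and by at least 20 points in 4. The first was miR-7-5p with miR-7-1-3p (99.1% in RKO, 8.07% in RKO-R), and counting miR-3529-3p with miR-7-5p gave 99.1% in RKO-R. miR-1307, in a region that is an untranslated exon in at least 1 transcript of ATP5MD, had 89 counts of the 5p arm and 3172 of the 3p arm in RKO, and 932 and 2816 in RKO-R. Its 5p share went from 2.73% (95% Wilson interval 2.22 to 3.35%) to 24.9% (23.5 to 26.3%), and in the HCT116 pair the 5p arm had 414 and 16 counts. miR-339, from an intron of C7orf50, had 696 counts of the 5p arm and 876 of the 3p arm in RKO, and 95 and 762 in RKO-R, so that its 5p share went from 44.3% (41.8 to 46.7%) to 11.1% (9.15 to 13.4%). In the HCT116 pair, miR-339-5p had 17 and 216 counts. miR-1306, with 114 and 35 counts of its arms in RKO, had 56 of each in RKO-R, so that its 5p share went from 76.5% (69.1 to 82.6%) to an equal division (40.9 to 59.1%). In miR-1307 and miR-339, the 5p arm differed and the 3p arm was near equal, with log2 ratios of -0.13 and -0.15.

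Less abundant arms were more often lower in RKO-R than the abundant arms of the same hairpins. Over 74 hairpins without a complementary partner and with at least 100 counts of the minor arm over both libraries, the median log2 ratio was -0.08 for the major arm and -0.42 for the minor arm, and the median difference within a hairpin was -0.33. The minor arm lay below the major arm by at least 1 on the log2 scale in 14 hairpins and above it by as much in 2, miR-1307 and miR-30d. Among the 14 were miR-23a-5p with 141 and 26 counts (-2.39) beside miR-23a-3p at -0.09, miR-151a-3p with 5630 and 2094 (-1.38) beside miR-151a-5p at 0.11, and let-7e-3p with 531 and 217 (-1.24) beside let-7e-5p at 0.22. miR-191-3p, with 215 and 61 counts (-1.77, -2.21 to -1.35), stood beside miR-191-5p at -0.32. For the same hairpins in the HCT116 pair the median difference was -0.10, with 8 below by at least 1 and 6 above. The ratio also went with abundance over all 328 miRNAs. In the RKO pair, the median log2 ratio was -0.35 for the 164 with a mean under 500 counts. It was -0.004 for the 73 with a mean of at least 5000. The part of abundance in the difference between arms was not tested.

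**Figure D4:**
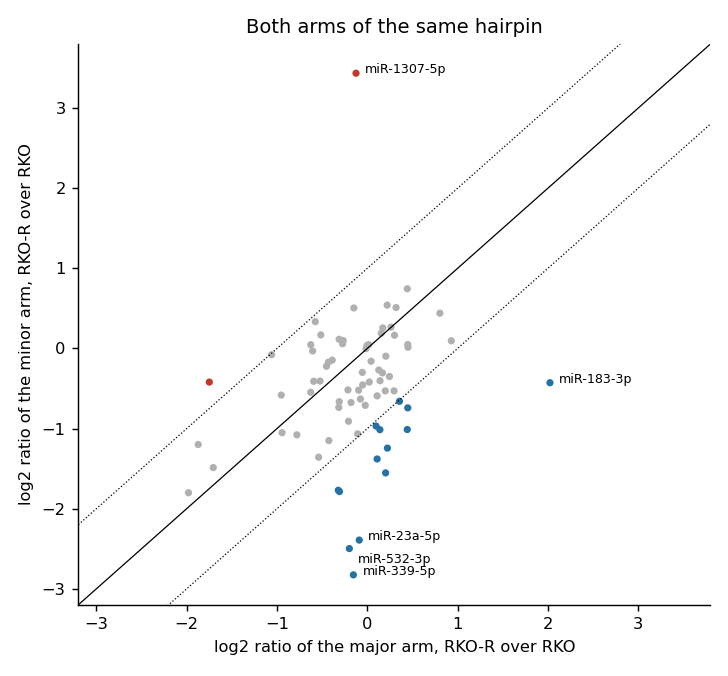
log2 ratio of RKO-R to RKO for the minor arm (y axis) against that of the major arm (x axis) of 74 hairpins, 1 point each. The solid line marks equal ratios and the dotted lines a difference of 1, and 14 hairpins lie below the lower dotted line (blue) and 2 above the upper one (red).

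The ratio also went with the base composition of the miRNA. Over the 291 miRNAs with a sequence, the median log2 ratio was 0.09 for 62 miRNAs with under 40% GC, -0.07 for 80 from 40 to 50%, -0.41 for 88 from 50 to 60% and -0.56 for 61 with at least 60%. Of those with at least 60% GC, 32.8% were at least 2-fold lower, against 6.45% of those under 40%. Spearman's rho between GC content and log2 ratio was -0.32 over these 291 miRNAs of the same pair of libraries. It was -0.36 among the 150 with a mean of at least 500 counts, and 0.02 for the ratio of the HCT116 pair. For the length of the miRNA, rho was -0.02. The mean GC content of the counts was 45.2% in RKO, 43.6% in RKO-R, 46.2% in HCT116 and 45.7% in HCT116-R. Of the 50 lower miRNAs with a sequence, 20 had at least 60% GC, 16 from 50 to 60%, 10 from 40 to 50% and 4 less. miR-940 (81.0% GC), miR-1268a (83.3%), miR-671-5p (69.6%), miR-339-5p (65.2%) and miR-532-3p (63.6%) lie in the top range, and miR-4521 (54.5%), miR-502-3p, miR-500a-3p, miR-320b, miR-320d (47.4%), miR-122-5p (45.5%), miR-30c-5p (43.5%) and miR-30e-5p (40.9%) below it. Among the higher ones, miR-1307-5p (71.4%) and miR-210-3p (63.6%) are GC-rich. The minor arms had a median of 4.55 percentage points more GC than the major arms, and in the 26 hairpins whose minor arm had no more GC than the major arm the median difference was -0.27, with 4 below by at least 1, and in the 38 with more GC in the minor arm it was -0.40, with 9 below by as much. The part of GC content in these results was not tested beyond this.

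**Figure D5:**
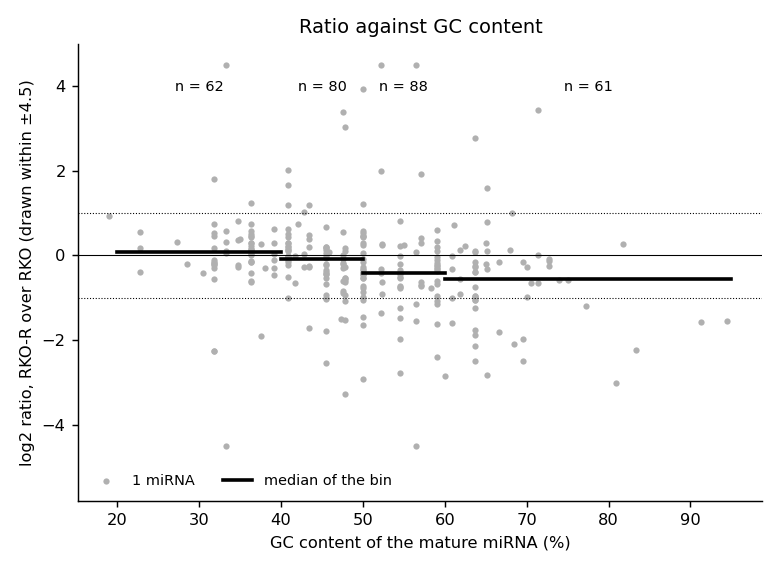
log2 ratio of RKO-R to RKO (y axis, drawn within ±4.5) against the GC content of the mature miRNA in percent (x axis) for 291 miRNAs. Thick lines are the medians of 4 ranges of GC content with the number of miRNAs above them, from 0.09 under 40% to -0.56 at 60% and more.

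Lists of miRNAs with known roles were read against the background of 6.4% higher, 16.8% lower and a median of -0.22. Of 10 mature miRNAs of the epithelial list, 1 was at least 2-fold higher, miR-200c-3p, and none lower, with a median of 0.29. Its members miR-192-5p and miR-194-5p had 1574 and 2236 and 537 and 824 counts (0.55 and 0.66). By contrast, its members miR-200a-5p, miR-200b-5p and miR-200a-3p were lower (-0.52, -0.42 and -0.21), and miR-200b-3p was near equal (0.02). miR-34a-5p, of no list described here, had 78386 and 56563 (-0.42). Of 18 miRNAs from hairpins known to target genes of the DNA damage response, such as ATM and BRCA1, none was higher and 2 were lower, miR-18a-3p and miR-26a-1-3p, both the minor arm of their hairpin, with a median of 0.10. miR-24-3p, which lowers H2AX, had 152141 and 88974 counts (-0.73). Of 15 miRNAs of the miR-17-92 cluster and its paralogs, none was higher and 4 were lower, with a median of -0.43. Of 14 let-7 miRNAs, 1 was higher and 1 lower, with a median of 0.19.

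Of 6 miRNAs linked to inflammation and hypoxia, 2 were higher, miR-210-3p and miR-146a-5p, a feedback inhibitor of NF-kB signalling with 140 and 308 counts (1.18, 0.89 to 1.48). miR-155-5p, an immune and oncogenic miRNA, had 33913 and 39597 counts (0.27). Of 17 miRNAs linked to apoptosis and growth (the miR-221 and miR-222, miR-29 and miR-30 families), none was higher and 4 lower, all of them from miR-30 hairpins, with a median of -0.27. The mesenchymal list held 61 counts in RKO against 675 in RKO-R, with miR-143-3p and miR-199a-5p as its 2 members that reached 50 counts. These sums include miR-199a-3p and miR-199b-3p, which had identical counts in every library (5 in RKO and 22 in RKO-R), so the same reads may be counted under both names. Of the blood list, miR-150-5p and miR-451a reached it, with a median of -0.42 and none beyond 2-fold. Of the 6 miRNAs the study named, chosen on these libraries, 5 reached it, 2 higher and 3 lower.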

How the data were processed

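Small RNA of HCT116, HCT116-R, RKO and RKO-R was size-selected, ligated to adapters with unique molecular identifiers and sequenced on the BGISEQ-500, with 1 library per line. The files deposited by the authors hold the raw read count of each mature miRNA. The submitters' processing notes name Bowtie2 and the genome build hg38. The miRNA annotation release, the use of strand, and whether reads that share an identifier were collapsed are not given in the sources used here. Lines were taken from the sample labels and doses from the study's methods.

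Counts were joined by miRNA name, with 0 for a missing name, and scaled by library totals (6818497 to 7140460 counts). Ratios of CPM carry exact conditional 95% counting intervals and shares 95% Wilson intervals. Both cover counting error only. A ratio against 0 used a floor of 3 counts per library. The study's methods name edgeR at a BCV of 0.2. No such test was run here, since its p-values would rest on that assumed spread alone. Families shared bases 2 to 8 of the RefSeq mature sequence, and a miRNA with no sequence there joined its namesakes. Clusters used a gap of 10 kb and only miRNAs with a RefSeq sequence. Complementary pairs were reverse complements over at least 16 bases and had different names. Gene overlaps came from GENCODE release 29. Scalings came from edgeR 4.0.16 (TMM) and DESeq2 1.42.0 in R 4.3.3, and the rest was computed in Python 3.11.15 with scipy 1.17.1. The interval was tested on simulated data.

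Named miRNAs were the 12 largest rises and 12 largest falls where a library had 200 counts or more, then the 10 most abundant in either library, the 6 named by the study, families or clusters of at least 3 members with a median log2 ratio of at least 1 in size, and hairpins whose 5p share differed by at least 20 percentage points. miRNAs outside this rule that are named in the text were chosen as neighbours, opposite arms or examples after their values were seen. The members and the lists were chosen with earlier results of these data known. Another list is not reported here.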

Additional observations from a re-analysis of the deposited data

Results flagged for a closer look

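Of 17 miRNAs that differed by at least 2-fold in opposite directions in the RKO and HCT116 pairs, 8 are among the miRNAs named by rule. For these, the log2 ratio of the RKO pair minus that of the HCT116 pair was -6.49 for miR-339-5p, -5.15 for miR-4521, -4.83 for miR-320b, -4.67 for miR-532-3p and -3.41 for miR-500a-3p, which were lower in RKO-R and higher in HCT116-R. It was 8.13 for miR-1307-5p, 4.64 for miR-103a-3p and 4.46 for miR-143-3p, which were higher in RKO-R and lower in HCT116-R. With 1 library per line, the difference was not tested.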

How the results depend on the processing

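The numbers of miRNAs at least 2-fold higher and lower in RKO-R (21 and 55) stayed within 1.5 times under TMM, DESeq2 size factors, totals without the 10 most abundant miRNAs, a mean of at least 50 counts, summed complementary pairs, identical counts kept once, and a counting interval wholly beyond 2-fold. They were 36 and 93 of 438 miRNAs at a minimum of 20 counts, 17 and 28 of 214 at 200 counts, and 9 and 18 at 4-fold. With 50 counts required in both libraries, they were 17 and 32 of 282 miRNAs. The minimum changes how many miRNAs enter. The median log2 ratio (-0.22) was 0.017 under TMM and -0.012 under DESeq2 size factors, which shift all ratios alike. Of 34 named miRNAs beyond 2-fold, miR-30e-5p alone came within it under each scaling. With TMM, the medians of the miR-320 family (-0.95) and of the CLCN5 cluster (-0.91) also did. In an alternative chosen after seeing the data, the trend with GC content was removed from 291 miRNAs, and 39 of 50 lower miRNAs remained beyond 2-fold, as did 16 of 19 higher ones. The depth allows levels down to 0.420 CPM in RKO and 0.434 CPM in RKO-R for a miRNA at 0 counts. No paired analysis was possible because RKO and RKO-R have 1 library each. A fit over both cell lines, with the line as a block, has 1 residual degree of freedom, concerns another comparison and was not run here. Nor could leaving out a replicate be tried.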
